A study of Triticum aestivum with 39 samples.

Results

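The coleoptile of germinating wheat seed was compared with the tissue labelled as the embryo of germinating seed, on 3 arrays each. These 6 arrays belong to a set of 39 arrays of the Affymetrix Wheat GeneChip, which covers 13 tissues of the cultivar Chinese Spring with 3 biological replicates per tissue. Both tissues came from untreated wild-type seed that was germinated on plates holding about 50 seeds, with 1 plate per replicate, at 22 °C in 16 h of light and 16 °C in 8 h of dark. Each collection used 10 seeds whose root and coleoptile had emerged, and the sources used here do not say whether both tissues were cut from the same seeds. The study's list of tissues has a mesocotyl where the labels have this embryo, a match made by elimination, and the tissue is called the embryo below. Root and coleoptile of germinating seed were samples of their own. The members of the comparison are the 39564 wheat probesets, of 61290 rows in the table, that carry no mark of cross-hybridization or of uncertain orientation.

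The coleoptile is the closed sheath that protects the first leaves of a grass while the shoot grows through the soil. It grows almost entirely by elongation of its cells, for which the wall has to be loosened, and it is a short-lived organ that never becomes a full leaf. The mesocotyl and the rest of the embryo axis join shoot, root and scutellum, and hold vascular tissue, dividing cells and the beginnings of further roots. Wheat is a hexaploid with an A, a B and a D genome, so that a probeset can receive signal from more than 1 homoeologous copy of a gene.

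Levels are given as log2(signal + 16), in which a step of 1 is a doubling well above background, and a difference is always coleoptile minus embryo. The median signal over these probesets was 39.5 to 46.2 on the coleoptile arrays and 45 to 47.8 on the embryo arrays, and the trimmed mean was 500.3 on each. Replicates correlated at 0.947 to 0.958 within the coleoptile and at 0.959 to 0.964 within the embryo, and arrays of different tissues at 0.917 to 0.932. The polyadenylated control RNAs averaged 7.62 to 7.67 on the coleoptile arrays and 7.89, 7.11 and 6.99 on embryo replicates 1, 2 and 3. The reporter probesets, which match no wheat gene and show the background, had medians of 4.46 to 4.78, and 90% of them lay under 5.82. Both tissue means were under that value for 17802 probesets, or 45% of those kept. Among the defining genes of other tissues, the storage protein, inhibitor and thionin list had summed signals of 10100 to 11200 in the coleoptile and 12600 to 15700 in the embryo. The same list reached 927000 to 1010000 in the endosperm at 22 days after pollination (22 DAP). In coleoptile and embryo the sums rest mainly on the xylanase inhibitor gene xip and 1 probeset of ALP, an avenin-like gene. The mean of xip was 12.25 in the coleoptile and 13.01 in the embryo, and that of this 1 ALP probeset 12.43 and 12.39. The other ALP probesets and the gliadin and serpin probesets of the list had means under 5.82 in both. Of these, the ALP probeset Ta.27777.1.S2_at was at 14.95 in the 22 DAP endosperm.

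The coleoptile had far more probesets below the embryo than above it. At an adjusted p under 0.05 in limma and a difference of at least 1, 2177 probesets were called, which is 5.50% of those tested. Of these 515 were higher in the coleoptile (1.30%) and 1662 were lower (4.20%), a ratio of 3.23 lower calls to each higher one. The ratio depends on scaling and was smaller under quantile normalization, with 655 higher and 1448 lower. The median difference over all kept probesets was −0.02 and the mean −0.08. The arrays of both tissues did not overlap for 2135 of the calls (5.40% of those tested). Differences of at least 4 were reached by 14 higher and 93 lower probesets, and differences of at least 6 by 3 and 4.

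**Figure D1:**
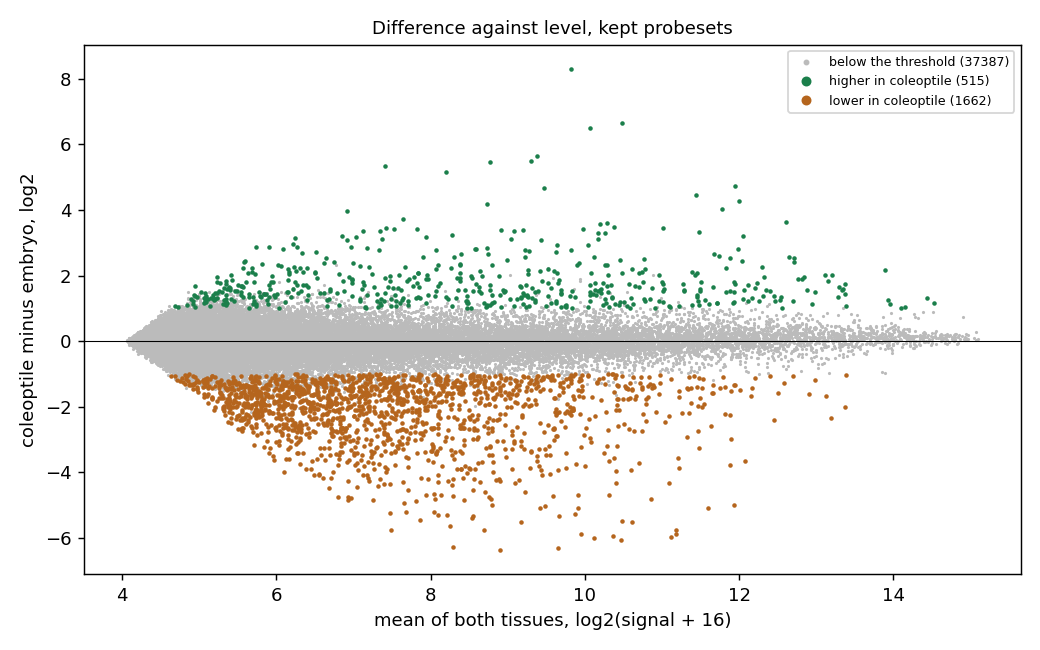
Difference between coleoptile and embryo (log2, vertical axis) against the mean level of both tissues (log2(signal + 16), horizontal axis), 1 point per kept probeset, with calls in colour. The 1662 lower calls crowd at middle levels, and the 515 higher calls spread up to the brightest probesets.

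Calls in both directions were not spread alike over the range of signal. Here probesets are grouped by their mean in the brighter of both tissues. Where that mean was 8 to 10, 2.61% were higher in the coleoptile and 11.2% lower. Where it was 14 or above, 7.41% were higher and 2.88% lower. The embryo mean lay under the reporter value of 5.82 for 154 of the higher calls (29.9%), and the coleoptile mean did so for 716 of the lower calls (43.1%). For these calls the offset helps to set how large the difference comes out. Because whole organs were extracted, a lower signal can come from fewer cells of a type or from less RNA per cell, and these cannot be told apart.

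Gene names were known for 110 of the kept probesets, which stand for 76 genes, and 10 of them (9.09%) were called, 3 higher and 7 lower in the coleoptile. A further 603 carry only a locus number, and 17 of these were higher and 64 lower. The gene groups below are therefore small, and each is described by its counts and median difference. Over all kept probesets the median was −0.02, with 1.30% called higher and 4.20% lower. The lists were chosen with earlier results of these data known, so no group was tested.

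Of the 2 genes with a kept probeset that were matched by name to the cell wall list, 1 was called higher in the coleoptile, against 1.30% of all kept probesets. XTH, which encodes an enzyme that cuts and rejoins the xyloglucan chains of the wall, had levels of 12.64, 13.48 and 12.48 on the coleoptile arrays and 11.46, 11.89 and 11.59 on the embryo arrays. The difference was 1.22 ± 0.25 (SE; adjusted p = 0.00123). Of the 13 tissues the coleoptile had the highest XTH mean, 12.86 ± 0.54 (SD, n = 3), and the pistil came next at 12.31. The call was lost without coleoptile replicate 2, where the difference was 0.91, and in fits to only these 6 arrays (adjusted p = 0.0931) or to the 9 arrays of germinating seed (adjusted p = 0.106). GLU1A, a beta-glucosidase gene, is in the list by its enzyme name only, and a role in the wall was not tested. It reached 14.89, 15.13 and 14.87 in the coleoptile and 13.87, 14.26 and 14.06 in the embryo. Its difference of 0.90 ± 0.27 (adjusted p = 0.0316) stayed under the size that was required for a call, and without embryo replicate 2 it was 1 and called (adjusted p = 0.0435).

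The genes for gibberellin 20-oxidase, an enzyme late in the synthesis of the growth hormone gibberellin, gave 0 calls among 3 probesets. GA20ox1b had levels of 8.22, 8.15 and 8.04 in the coleoptile and 6.85, 6.86 and 6.75 in the embryo. These arrays lie far apart, yet the difference of 1.32 ± 0.42 had an adjusted p of 0.0524. Its error rests on a spread that is estimated over all 13 tissues. GA20ox1b passed the threshold under 8 of the alternative settings, among them the fit to only these 6 arrays, where the adjusted p was 0.00766. GA20ox1d differed by 1.05 (adjusted p = 0.059), again with every coleoptile array above every embryo array. GA20ox1a was at 6.71 ± 0.19 in the coleoptile and 6.64 ± 0.57 in the embryo (SD, n = 3 each). The median difference of the group was 1.05.

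All 3 probesets of the lectin and defence group were called, 1 higher and 2 lower, against 1.30% and 4.20% of all kept probesets. LTP3, which encodes a lipid transfer protein, a small secreted protein of plant surfaces, had levels of 13.06, 13.10 and 12.86 in the coleoptile and 11.24, 11.65 and 11.27 in the embryo. Its difference was 1.62 ± 0.28 (adjusted p = 0.000106, and 0.0866 in the fit to 9 arrays). LTP3 was at 5.07 in the root of germinating seed and at 4.28 in the seedling root, both near background.

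WGA2, the gene of a wheat germ agglutinin, a chitin-binding lectin known from the embryo, showed levels of 6.26, 6.79 and 7.24 in the coleoptile and 10.50, 10.68 and 10.26 in the embryo. The difference of −3.71 ± 0.38 (adjusted p = 1.73e-08) was one of the clearest among named genes. The root of germinating seed, at 10.37, was at the level of the embryo, and the 22 DAP embryo had the highest mean, 14.72. PR5, which encodes a thaumatin-like pathogenesis-related protein, was at 4.76, 4.52 and 4.32 in the coleoptile, within the range of the reporters, and at 8.40, 8.40 and 8.93 in the embryo. Its difference was −4.04 ± 0.95 (adjusted p = 0.00445), and −5.55 with an offset of 1. In a fit to only the 9 arrays of germinating seed the adjusted p of PR5 was 0.0564. The root of germinating seed had the highest PR5 mean, 8.88 ± 2.52 (SD, n = 3), a spread too wide to rank it above the embryo.

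Of the 3 transport and metal-binding genes, 2 were lower in the coleoptile, against 4.20% of all kept probesets. ALMT1-1, which encodes a malate transporter known from aluminium resistance of wheat root tips, had levels of 8.20, 8.71 and 8.87 in the coleoptile and 10.08, 11.28 and 10.62 in the embryo. The difference was −2.07 ± 0.49 (adjusted p = 0.00521), and without embryo replicate 2 it was −1.76 with an adjusted p of 0.0521. The embryo level of 10.66 stood above the 7.70 of the root of germinating seed and just under the 10.98 of the seedling root. The proton pump gene H+-ATPase was bright in both tissues, with 11.63, 11.56 and 11.94 in the coleoptile and 13.14, 13.34 and 13.38 in the embryo. Its difference of −1.57 ± 0.14 (adjusted p = 1.39e-09) had the smallest error of the named calls, and the coleoptile ranked 12 of 13 tissues for this gene. PCS1, the gene of the enzyme that makes phytochelatin, was at 7.41 ± 0.18 in the coleoptile and 7.62 ± 0.33 in the embryo, and was not called, with the coleoptile lowest of the 13 tissues.

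In the redox and detoxification group 2 of 10 probesets were lower in the coleoptile, against 4.20% of all kept probesets. None was higher, while the median difference was 0.60. Both calls belong to GSTZ1, a zeta class glutathione transferase of amino acid breakdown. The first probeset had levels of 7.44, 7.48 and 8.14 in the coleoptile and 9.33, 9.84 and 9.52 in the embryo, and differed by −1.88 ± 0.26 (adjusted p = 4.39e-06). The second differed by −1.67 ± 0.26 (adjusted p = 2.13e-05, and 0.0598 in the fit to 6 arrays), with all coleoptile arrays again below all embryo arrays. CAT1, a catalase gene, had 5.63, 6.10 and 7.0 in the coleoptile and 5.04, 5.64 and 4.61 in the embryo, and its difference of 1.15 did not pass the test (adjusted p = 0.0888). Without coleoptile replicate 1 it was 1.45, with an adjusted p of 0.0424. These embryo levels lay under the reporter value of 5.82. The second kept probeset of CAT1 differed the other way, by −0.52, with means of 4.60 in the coleoptile and 5.12 in the embryo, and was not called.

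**Figure D2:**
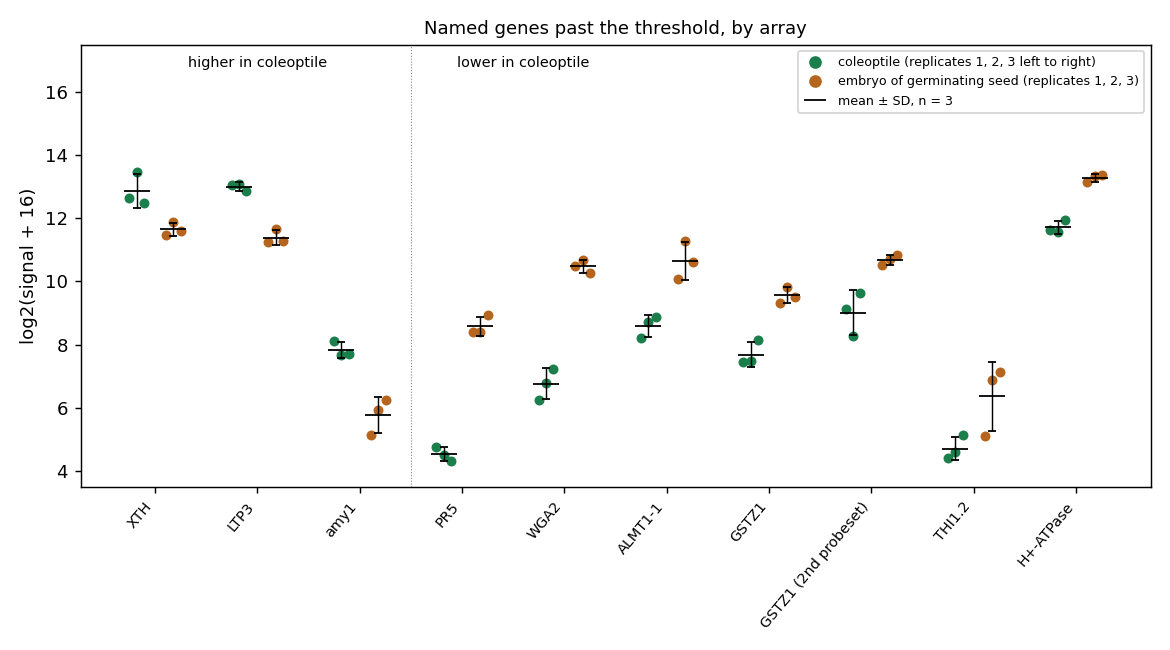
Levels (log2(signal + 16), vertical axis) of the 10 named probesets that passed the threshold, 1 point per array, with the mean and SD of 3 arrays in black and the coleoptile left of the embryo for each gene. The arrays of both tissues are apart for every gene but THI1.2, whose coleoptile replicate 3 and embryo replicate 1 overlap.

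Reserve mobilization was represented by few genes. The amylase gene amy1, which the reference table lists under symbols of both alpha- and beta-amylase, had levels of 8.11, 7.68 and 7.70 in the coleoptile and 5.15, 5.94 and 6.24 in the embryo. The difference was 2.05 ± 0.46 (adjusted p = 0.00272). The level was far below that of the young caryopsis, 13.93, and below that of the root of germinating seed, 10.35. Glc1, the other gene in the list of germination hydrolases, had 4.98, 6.55 and 4.19 in the coleoptile and 5.90, 5.55 and 5.54 in the embryo, and was not called. The storage protein, inhibitor and thionin list had 16 probesets, of which 1 was lower, none was higher and 15 were not called, with a median difference of 0.02. The 1 call was the thionin gene THI1.2, at 4.41, 4.59 and 5.13 in the coleoptile and 5.10, 6.87 and 7.12 in the embryo. Here the arrays overlapped, and the difference of −1.66 ± 0.49 (adjusted p = 0.0307) lost its call under 10 alternatives, including the removal of coleoptile replicate 1 or 2 or of embryo replicate 2 or 3. The xylanase inhibitor gene xip, bright in both tissues, had 12.45, 11.93 and 12.37 in the coleoptile and 12.79, 13.01 and 13.24 in the embryo, with an adjusted p of 0.329.

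The fructan and starch genes gave 0 calls among 5 probesets, with a median difference of −0.04. The fructan exohydrolase gene 1-FEH, whose product removes fructose units from stored fructan, had levels of 11.52, 11.03 and 11.29 in the coleoptile and 11.88, 11.98 and 12.14 in the embryo. Its difference of −0.72 ± 0.15 (adjusted p = 0.00171) was clear of the replicate error and below the size threshold. AGP-S, for a subunit of ADP-glucose pyrophosphorylase, which supplies the substrate of starch synthesis, was at 12.54 ± 0.04 in the coleoptile and 12.19 ± 0.07 in the embryo (adjusted p = 0.145).

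The brighter genes of photosynthesis differed more among the coleoptile arrays than between both tissues. The list had 30 probesets, of which none was called, with a median difference of 0.20. Of these, 21 are annotated to rbcl, the gene of the large Rubisco subunit. Most of the rbcl probesets had means under the reporter value of 5.82 in both tissues, so the median rests largely on dim probesets. The brightest kept one was at 8.87 in the coleoptile and 8.41 in the embryo. The brightest rbcl probeset among those left out was at 15.01 and 14.70 and was not called. The summed signal of the list ran from 4130 to 23200 on the coleoptile arrays and from 4670 to 10500 on the embryo arrays, against 227000 to 323000 in the seedling leaf. petC, for the Rieske protein of the cytochrome b6f complex, had levels of 11.05, 9.06 and 12.65 on coleoptile replicates 1, 2 and 3 and of 10.16, 11.80 and 10.61 on embryo replicates 1, 2 and 3. OEE2, for a protein of the oxygen-evolving complex, gave 10.80, 9.16 and 12.50 in the coleoptile and 9.82, 11.54 and 10.56 in the embryo. The Calvin cycle gene PRK and the thioredoxin gene Trx-M had the same array lowest and the same array highest in each tissue. Coleoptile replicate 2 was thus the lowest and replicate 3 the highest for these genes, and within the embryo replicate 2 was the highest. The mean differences of these 4 probesets were 0.05 to 0.47. Without coleoptile replicate 2, 3 probesets of the list were called higher.

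Prx1, a peroxiredoxin gene that is counted in both the photosynthesis and the redox list, had 10.41, 9.30 and 11.86 in the coleoptile and 9.15, 9.90 and 9.32 in the embryo, and its difference of 1.07 was not called (adjusted p = 0.142). Without coleoptile replicate 2 it was 1.68, with an adjusted p of 0.00608. In another list, the brighter probeset of rab had 10.53, 7.89 and 12.13 in the coleoptile and 8.29, 9.61 and 8.79 in the embryo. This is the embryo maturation list, which had 0 calls among 6 probesets and a median difference of 0.13. Em, a late embryogenesis abundant gene, was at 6.45 ± 0.37 in the coleoptile and 7.12 ± 0.55 in the embryo, against 15.10 in the 22 DAP embryo. Over all kept probesets, a range above 2 among replicates was found for 935 (2.36%) in the coleoptile and 537 (1.36%) in the embryo. Coleoptile replicate 3 was the highest array for 469 of the 935 and replicate 2 for 344. The leaf had the highest mean of all tissues for 246 of the 935 (26.3%), against 12.9% of all kept probesets.

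**Figure D3:**
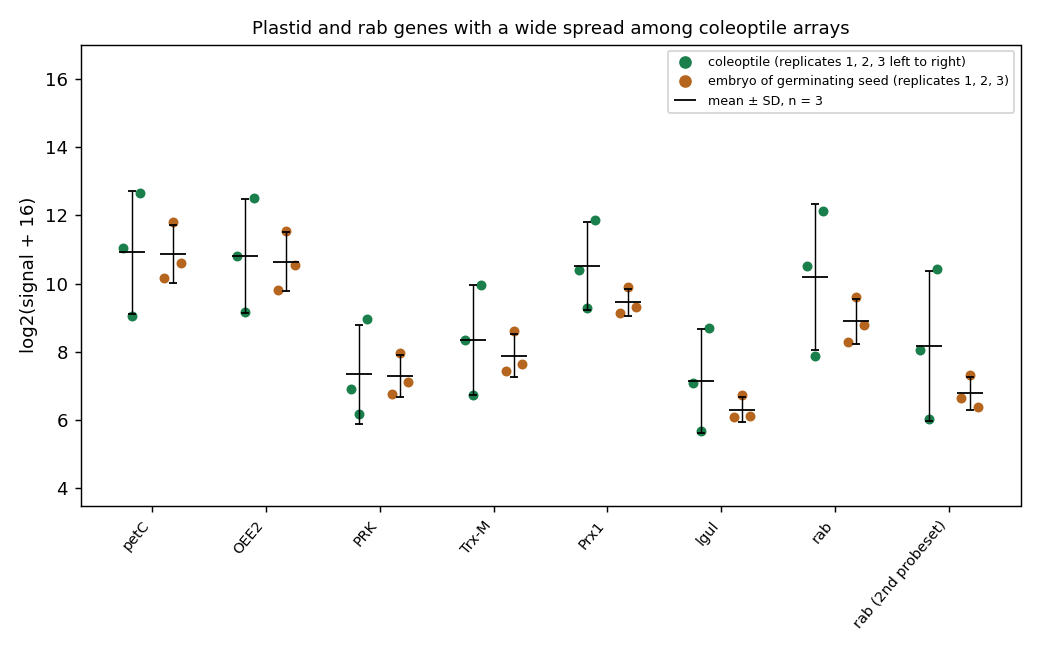
Levels (log2(signal + 16), vertical axis) by array of plastid genes, the glyoxalase gene lgul and rab, with replicates 1, 2 and 3 from left to right and the coleoptile left of the embryo. The coleoptile points are spread over more than 2 units, lowest on replicate 2 and highest on replicate 3, and the embryo points over less.

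The 7 histone probesets had differences of −0.09 to 0.49, 0 calls and a median of 0.06, and their levels were 13.04 to 14.27 in the coleoptile and 13.13 to 13.98 in the embryo. Of 4 tubulin probesets, 3 differed by 0.02 to 0.20. The fourth, TUBA, had 9.75, 9.61 and 9.25 in the coleoptile and 9.70, 11.53 and 10.86 in the embryo, and was called only without embryo replicate 1 (difference −1.65, adjusted p = 0.0328). The group of protein synthesis and folding had 0 calls among 3 probesets, with differences of 0.29 to 1.43 and a median of 0.47. Its small heat shock gene hsp16.9A had 6.59, 6.15 and 5.47 in the coleoptile and 5.20, 4.46 and 4.25 in the embryo, with all arrays apart and an adjusted p of 0.132. The zinc finger gene WZF1 was at 7.19 ± 0.25 in the coleoptile and 8.08 ± 0.29 in the embryo and was not called. Of the 12 kept probesets with a primer pair for quantitative PCR 0 were called. The probeset of a MYB transcription factor that the study names was near background, at 4.61 ± 0.64 in the coleoptile and 4.87 ± 0.62 in the embryo.

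The largest differences belonged to probesets without a gene name. Ta.18111.1.S1_at had levels of 14.29, 14.56 and 13.09 in the coleoptile and 6.05, 5.12 and 5.83 in the embryo, and differed by 8.31 ± 0.45 (adjusted p = 5.32e-14). Its mean in the other 11 tissues was at most 5.28, which is within the range of the reporters. Ta.21386.1.S1_at (difference 6.65) and TaAffx.57270.1.S1_at (6.51) were also brightest in the coleoptile, at 13.81 and 13.32, and reached at most 9.30 and 7.22 in any of the other 11 tissues. Ta.21365.1.S1_at was at 14.33, 14.43 and 14.21 in the coleoptile and at 10.62, 8.43 and 9.69 in the embryo, and was at most 4.86 elsewhere. Each of these 4 probesets was thus more than 4 units brighter in the coleoptile than in the next tissue.

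Of the other 6 among the 10 largest, 5 were also bright in the leaf. Ta.4335.1.S1_at had levels of 12.69, 10.50 and 13.40 in the coleoptile and 6.47, 6.22 and 6.98 in the embryo, and reached 13.45 in the seedling leaf. Ta.14568.1.S1_at, TaAffx.129409.1.S1_at, Ta.7830.1.S1_at and TaAffx.11276.1.S1_at were at 13.14, 11.17, 11.17 and 9.97 in the leaf, beside coleoptile means of 12.05, 10.08, 11.51 and 11.81 and embryo means of 6.54, 4.74, 6.04 and 7.12. In the same order these 5 probesets were at 10.82, 12.52, 9.84, 9.34 and 8.21 in the crown. In the immature inflorescence they were at 11.55, 13.52, 5.51, 8.11 and 5.83, and Ta.14568.1.S1_at had its highest mean there. Only Ta.1681.1.S1_at was brightest in a root, with 10.78 in the coleoptile, 5.61 in the embryo and 12.56 in the root of germinating seed.

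The 10 largest lower probesets without a name differed in where else they were bright. Ta.1840.1.S1_at had levels of 4.15, 5.36 and 7.64 in the coleoptile and 11.32, 12.49 and 12.45 in the embryo, and differed by −6.37 ± 0.60 (adjusted p = 4.68e-09). It reached 14.14 in the root of germinating seed and 14.76 in the seedling root. Ta.20756.1.S1_at and Ta.8147.1.S1_at were also brightest in a root, with 13.30 and 14.65 in the root of germinating seed. In each of these 3 probesets replicate 3 was the highest coleoptile array. Ta.28316.1.S1_at and Ta.28316.3.S1_at, which come from 1 cluster of transcripts, had means of 6.51 and 7.01 in the coleoptile and of 12.80 and 12.89 in the embryo, and both were highest in the seedling crown, at 14.53 and 14.52. Ta.9400.1.S1_at and Ta.28058.1.S1_at were also highest in the crown. Ta.9400.1.S1_at was at 14.13 in the 22 DAP embryo and at 7.23 in the root of germinating seed. Ta.456.1.S1_at was highest in the 22 DAP endosperm, at 15.27, and was at 14.82 in the floral bracts. TaAffx.131320.1.S1_at, at 8.25 ± 0.62 in the coleoptile and 14.12 ± 0.27 in the embryo, and TaAffx.43393.1.S1_at, at 4.61 ± 0.52 and 10.37 ± 0.34, were the 2 of the 10 with their highest mean in the embryo.

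**Figure D4:**
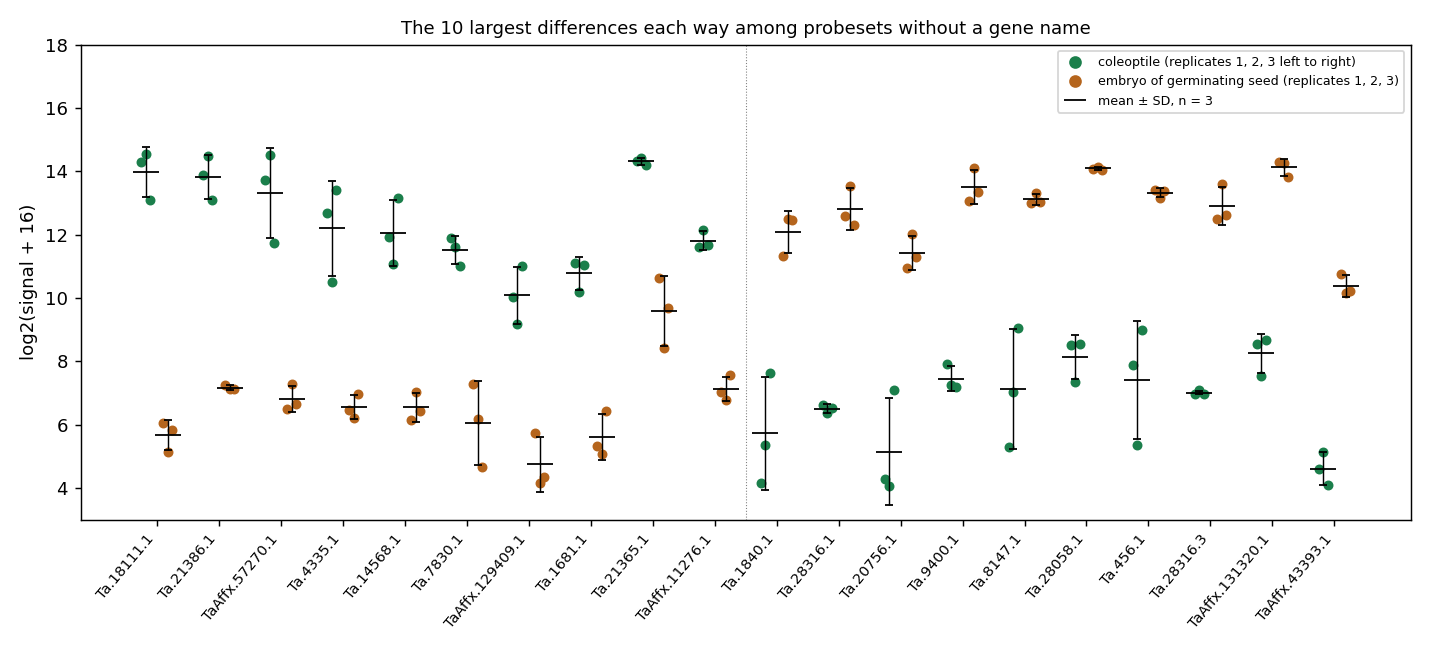
Levels (log2(signal + 16), vertical axis) by array of the 10 largest differences in each direction among probesets without a gene name, with mean and SD of 3 arrays, coleoptile left of embryo. No coleoptile array overlaps an embryo array in any of the 20 probesets.

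The other 11 tissues, whose arrays did not enter either mean, were set beside both sets of calls. The root of germinating seed was nearer to the embryo than to the coleoptile for 1301 of the 1662 lower calls (78.3%), against 55.5% of all kept probesets, and nearer to the coleoptile for 123 of the 515 higher calls (23.9%), against 44.5% of all kept. The seedling root was nearer to the embryo for 77.7% of the lower calls, against 55% of all kept, and the crown for 71.8%, against 55.7%. For the leaf the share was 57.2%, against 50.8%, which is closer to that of all kept. The immature inflorescence was nearer to the embryo for only 28.9% of the lower calls, against 52.8% of all kept, the 22 DAP embryo for 30%, against 53.1%, and the pistil for 34.2%, against 52.8%. Of the higher calls, the leaf was nearer to the coleoptile for 48.2%, against 49.2% of all kept, and the crown for 44.1%, against 44.3%. These were the highest shares among the 11 tissues, and none of the 11 exceeded its share of all kept. The calls were chosen for a gap between coleoptile and embryo, which most kept probesets lack. The shares of all kept are therefore only a rough reference, and no test was made. The seedling root was so for 21.7%, against 45%. The 515 higher probesets had a median level of 9.42 in the coleoptile and 7.41 in the embryo, and in the other tissues the median was highest in leaf (8.29) and crown (8.06) and lowest in the seedling root (6.42). The 1662 lower probesets had a median of 6.12 in the coleoptile and 8.30 in the embryo, and they were brighter still in the roots of germinating seed (8.56) and seedling (8.72). In the pistil (6.14), the 22 DAP embryo (6.28) and the immature inflorescence (6.35) they were nearly as dim as in the coleoptile.

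The tissue with the highest mean was the coleoptile for 162 of the higher calls (31.5%), against 3.95% of all kept probesets, and after it the leaf for 85 (16.5%, against 12.9% of all kept) and the pistil for 68 (13.2%, against 8.12%). Of the lower calls 161 (9.69%) had their highest mean in the embryo, against 2.17% of all kept, and 323 (19.4%) in the seedling root, against 7.43%. The root of germinating seed was highest for 219 of them (13.2%, against 3.29% of all kept) and the floral bracts for 202 (12.2%, against 7.45%). The coleoptile's share of the higher calls and the embryo's share of the lower calls follow in part from how the calls were made. Arrays of the coleoptile correlated with those of the root of germinating seed at 0.852 to 0.870, and arrays of the embryo at 0.902 to 0.918.

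**Figure D5:**
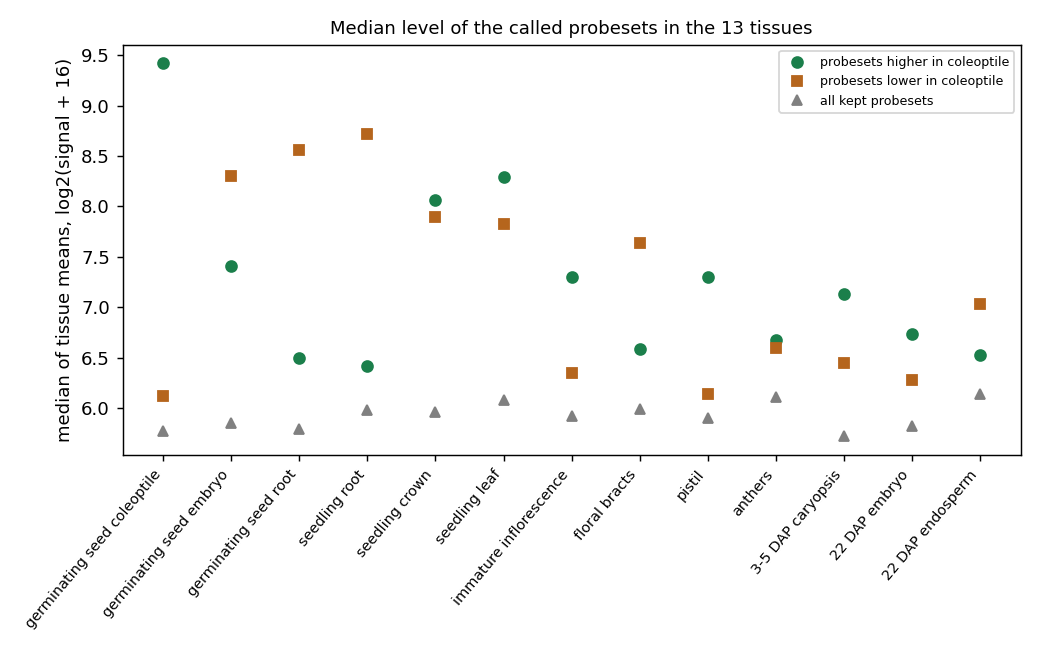
Median of the tissue means (log2(signal + 16), vertical axis) of the probesets higher and lower in the coleoptile and of all kept probesets, for each of the 13 tissues. The lower set is brighter in both roots than in the embryo, and the higher set is next brightest in leaf and crown. Coleoptile and embryo chose the sets.

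Some clusters of transcripts have several probesets. Of 2828 clusters with at least 2 kept probesets, 326 had at least 1 called and 82 at least 2. In 79 of the 82 the calls had 1 direction, and in 3 they had both. At least 2 lower calls were found in 66 clusters and at least 2 higher calls in 14. Because 1662 of all 2177 calls were lower, many clusters would have calls of 1 direction in any case. An expected share was not computed. Ta.5490.1.S1_at, Ta.5490.2.S1_at and Ta.5490.3.S1_at were lower, at 8.60, 9.30 and 7.57 in the coleoptile and 12.16, 13.15 and 12.25 in the embryo. The 3 kept probesets beginning with Ta.303.1.S1_at and the 3 beginning with Ta.21061.1.S1_at were also lower. Probesets that had been left out because they can cross-hybridize or have an uncertain orientation were called in 8.09% to 11.9% of cases in a fit to all wheat probesets, where 5.75% of the kept ones were called. Among the 90 left-out probesets with a gene name, 1 was higher, for LTP3 (difference 1.59), and 6 were lower. The 6 were for GSTZ1 (difference −2.20), the phosphoethanolamine methyltransferase gene PEAMT1 (−1.91), 6-FEH (−1.47), Em (−1.32) and H+-ATPase (−1.40 and −1.12). The directions for LTP3, GSTZ1 and H+-ATPase were thus those of the kept probesets, although probesets of 1 gene can share target sequence.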

How the data were processed

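The deposited values are MAS5 intensities on a linear scale, 1 intensity per probeset and array, which the authors scaled to a common trimmed mean (the version of the software is not given in the sources used here). The RMA values on which the study's own analysis rests were not used here. Samples were assigned by their titles. Intensities were converted to log2(signal + 16), and arrays were not scaled again. Probesets marked _s_at, _x_at, _a_at or .A1, 111 controls and 64 reporters were left out, which kept 39564. One mean per tissue was fitted to all 39 arrays in limma 3.58.1 under R 4.3.3, with no covariates, and p-values were adjusted by Benjamini-Hochberg over all kept probesets. Calls required an adjusted p under 0.05 together with a log2 difference of 1 or more in size. On simulated data with normal errors for this comparison over 39564 probesets, 84 of 100 changes of 1.5 and 99 of 100 changes of 3 were called, with 7 false calls. The changed probesets were drawn only from those with a mean level of both tissues above 7. These shares therefore do not hold for dimmer probesets. With 3 arrays per tissue, array number sets the precision of a mean. The labels call the samples biological replicates.

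Gene names came from the platform annotation and RefSeq, which list 1273 probesets with a gene. The genes named in the text were drawn from called genes whose arrays did not overlap, the largest and smallest difference of each of 14 gene lists, the 10 largest differences without a gene name in each direction, the named calls nearest to the size threshold, and the probesets the study measured by quantitative PCR. AGP-S, GA20ox1d, petC, OEE2, PRK, Trx-M, the brighter rab probeset, xip, lgul, PEAMT1, 6-FEH, the clusters, the array controls (CYP86-TA, sucrose synthase, ubiquitin and gapdh) and the MYB probeset fall outside this rule and were chosen after their values were seen. The ALP, rbcl, gliadin and serpin probesets and the second CAT1 probeset were also chosen after their values were seen. The lists and rules were chosen with earlier results of these data known. No build is named for the files, so no coordinates are given, and no promoter, probe or protein sequence was used here. Figures were made with matplotlib 3.10.9 under Python 3.11.15.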

Additional observations from a re-analysis of the deposited data

How the results depend on the processing

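The counts of 515 higher and 1662 lower probesets stayed within 1.5 times under quantile normalization, both other scalings, offsets of 1 and 64, the filter at the median level, fits to 6 or 9 arrays, the trend and robust options and the replicate block in the fit to all tissues (507 and 1642). Quantile normalization gave 655 and 1448 and scaling to equal medians 625 and 1475, so that lower calls outnumbered higher ones by less than in the main fit. Scaling to the hybridization controls, which was chosen after seeing the data, gave 418 and 1426. With all probesets except controls the counts were 1106 and 3254, because more probesets were tested. A size threshold of 2 left 149 and 702, and no size threshold gave 810 higher and 2124 lower. Leaving out 1 array at a time gave 428 to 526 higher and 1412 to 1583 lower calls. The sources used here do not say whether samples of both tissues with 1 number share a plate. Their deviations correlated at 0.01, −0.05 and 0, so no pairing was used. A replicate block in the fit to only the 6 arrays left 168 higher and 656 lower calls.

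For the 30 called probesets named above, 515 of 536 values under alternatives kept their direction and their call, 21 lost the call and none turned. Of the lost calls 10 were of THI1.2 and 4 of XTH, whose adjusted p was 0.0931 and 0.106 in the fits to 6 and 9 arrays. LTP3 lost its call in the fit to 9 arrays (0.0866). For amy1 the call was lost with a replicate block in 6 arrays (0.0862), as it was for both probesets of GSTZ1. Among probesets that were not called, 17 of 590 values turned sign, each in a probeset with a main difference between −0.42 and 0.46. Of the probesets with primers for quantitative PCR, 2 had 0.02 and −0.15 under quantile normalization, and 2 had 0.02 and 0.08 with equal medians. With 1 array left out, the differences of 4 of these probesets ran from −0.05 to 0.03, from −0.07 to 0.13, from −0.10 to 0.15 and from −0.01 to 0.13. In the same way they ran from −0.21 to 0.36 for GA20ox1a, from −1.07 to 0.10 for Glc1, from −0.11 to 0.94 for AGA.1 and from −0.64 to 0.09 for the MYB probeset. The cause of these changes was not tested. With 3 arrays per tissue and close to 45% of probesets near background, smaller differences and those of dim genes can be missed.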

Other observations

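The wheat probesets that serve as array controls were outside the comparison, and their values were not tested. The 3′ probeset of the cytochrome P450 gene CYP86-TA, whose family makes the hydroxylated fatty acids of cutin, had levels of 10.15, 9.93 and 10.12 in the coleoptile and 8.42, 8.59 and 8.55 in the embryo. The middle probeset had 8.42, 8.42 and 8.36 in the coleoptile and 7.07, 7.61 and 7.77 in the embryo, and the 5′ probeset averaged 6.87 ± 0.33 and 6.76 ± 0.25 (SD, n = 3 each). Sucrose synthase had means of 13.14, 11.30 and 7.42 in the coleoptile for its 3′, middle and 5′ probesets, and of 13.79, 12.04 and 8.05 in the embryo. Its arrays overlapped between both tissues for the middle and 5′ probesets. Ubiquitin differed by 0.13 or less. The probesets for gapdh, a gene of glycolysis, went in both directions. The middle one had 6.51, 6.58 and 6.22 in the coleoptile and 6.0, 5.27 and 4.34 in the embryo, and a 5′ probeset marked for cross-hybridization had 6.66, 5.55 and 4.59 in the coleoptile and 7.08, 7.25 and 6.93 in the embryo.

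Within the coleoptile, replicate 3 was the highest array for 784 of the 1662 lower probesets (47.2%) and the lowest for 255 of the 515 higher ones (49.5%), against 32.3% and 35% of all kept probesets. Without this array 526 probesets were higher and 1583 lower.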
